A study of Rattus norvegicus with 12 samples.

Results

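The miR-17-92 cluster is a run of 6 microRNA hairpins on rat chromosome 15, and all 6 were found by gene name among the 444 features measured in rat liver: Mir17, Mir18a, Mir19a, Mir20a, Mir19b1 and Mir92a1. All 6 passed the filter on low values that left 293 features for testing. The livers came from male Sprague-Dawley (Jcl:SD) rats, an outbred stock, that were 7 weeks old when oral dosing for 5 days began. Rats of the CAF group received caffeine at 120 mg/kg, an adenosine receptor antagonist. Rats of the DEX group received dextromethorphan hydrobromide monohydrate at 100 mg/kg, a cough suppressant that acts on glutamate and sigma receptors. The CAF+DEX group received both drugs at those doses, and the Control group received sterile distilled water, the vehicle of all drugs. Liver was taken 1 h after the last dose from groups of 5 rats, and 3 small RNA libraries per group were analysed, 12 in all. Which rat gave which library is not stated in the labels. The p-values therefore reflect only the spread among these libraries, part of which may be technical. Levels are given in FPKM, fragments per kilobase of the annotated hairpin scaled to the reads on the listed features.

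The members of the cluster are cut from a single primary transcript, first by Drosha in the nucleus and then by Dicer in the cytoplasm. The cluster is known from mouse and human work as a promoter of cell proliferation and survival, it is often raised in tumours, including human liver cancer, and its deletion in mice impairs B cell and lung development. Its mature microRNAs fall into seed families, which share the bases that pair with target messenger RNAs. In mouse lymphoma the miR-19 members carry much of the cluster's tumour-promoting activity, in human cells the miR-17 members repress the cell cycle factor E2F1, and miR-92a has been studied in mouse blood vessel growth.

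The mature sequences show how the 6 hairpins group by seed. They are from RefSeq on GRCr8, in which 6 of 6 members were matched, and the seed (bases 2 to 8) is in capitals. For each hairpin the arm named here is the one for which it is best known, while the deposited values are per hairpin and do not separate arms.
rno-miR-17-5p (Mir17): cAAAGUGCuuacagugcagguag
rno-miR-20a-5p (Mir20a): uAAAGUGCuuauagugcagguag
rno-miR-18a-5p (Mir18a): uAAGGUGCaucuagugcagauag
rno-miR-19a-3p (Mir19a): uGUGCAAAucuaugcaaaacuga
rno-miR-19b-3p (Mir19b1): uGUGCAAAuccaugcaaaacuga
rno-miR-92a-3p (Mir92a1): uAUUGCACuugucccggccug

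Mir17 and Mir20a carry the same seed and differ, with positions counted from 1 at the 5′ end of the mature sequence, by C1U and C12U. Mir19a and Mir19b1 also share a seed and differ only by U11C. Mir18a and Mir92a1 have seeds of their own within the cluster, and the Mir18a seed departs from that of Mir17 by A4G.

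On the rn7 build and the plus strand, the deposited table places Mir17 (ENSRNOG00000035657) at chr15:92180629-92180712 and Mir18a (ENSRNOG00000035645) at chr15:92180765-92180860. Mir19a (ENSRNOG00000035578) lies at chr15:92180912-92180993 and Mir20a (ENSRNOG00000035605) at chr15:92181084-92181168. Mir19b1 (ENSRNOG00000035462) lies at chr15:92181214-92181300 and Mir92a1 (ENSRNOG00000035649) at chr15:92181336-92181413. Each position is that of an annotated microRNA gene, and exons or introns of a host transcript were not analysed here. The 6 hairpins span 785 bases with gaps of 35 to 90 bases between neighbours. Their lengths are 78 to 96 bases, equal to the RefSeq hairpin length in 6 of 6, so division by length moves levels little within the cluster. GC content was 43.7 to 48.8%. The folding energy predicted by RNAfold was lowest for Mir17 at -43.1 kcal/mol and highest for Mir18a at -29.2 kcal/mol.

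The reads recovered from the FPKM values are those on the listed features and do not give the sequencing depth. They were 2863572 to 3107874 per library in CAF, 2941725 to 3363795 in DEX, 3145320 to 3360465 in CAF+DEX and 3103016 to 3418568 in Control. The CAF range was the lowest. It lay below all CAF+DEX libraries and overlapped the Control range only slightly. Libraries had 258 to 273 features above 0. Mir192, a hepatocyte microRNA, was the most abundant feature in each of the 12 libraries, and the 6 hepatocyte markers examined were above 0 in all of them. In bulk liver, fewer cells of a type and less RNA per cell cannot be told apart.

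The levels of the members in liver spread over more than 2 orders of magnitude in FPKM. Mir19b1 was highest and Mir18a lowest in 12 of 12 libraries. The ratio of Mir19b1 to Mir18a within a library was 353 to 503 in CAF, 380 to 609 in DEX, 451 to 616 in CAF+DEX and 406 to 523 in Control, so the groups overlapped. By mean FPKM over the 12 libraries, Mir19b1 ranked 29 among the 444 features, Mir19a 61, Mir20a 70, Mir92a1 73, Mir17 113 and Mir18a 148.

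The order Mir19b1, Mir19a, Mir20a, Mir92a1, Mir17, Mir18a held in 12 of 12 libraries. Over the 12 libraries, Mir19b1 was 4.23 times Mir19a in FPKM, Mir19a was 1.48 times Mir20a, and Mir20a was 1.34 times Mir92a1. The wider steps followed, with Mir92a1 at 7.65 times Mir17 and Mir17 at 7.34 times Mir18a, all as geometric means. Each of the 5 steps between neighbours had p = 0.000488 in a two-sided exact sign-flip permutation test over 12 libraries, the smallest p that this design allows, and adjusted p = 0.000488 over the 5 steps. The order was taken from the same 12 libraries, so these p-values describe how constant it was and are no independent test of it. The 2 lowest members are the first 2 hairpins of the cluster and the highest is the fifth, and a relation of level to place was not tested.

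**Figure D1:**
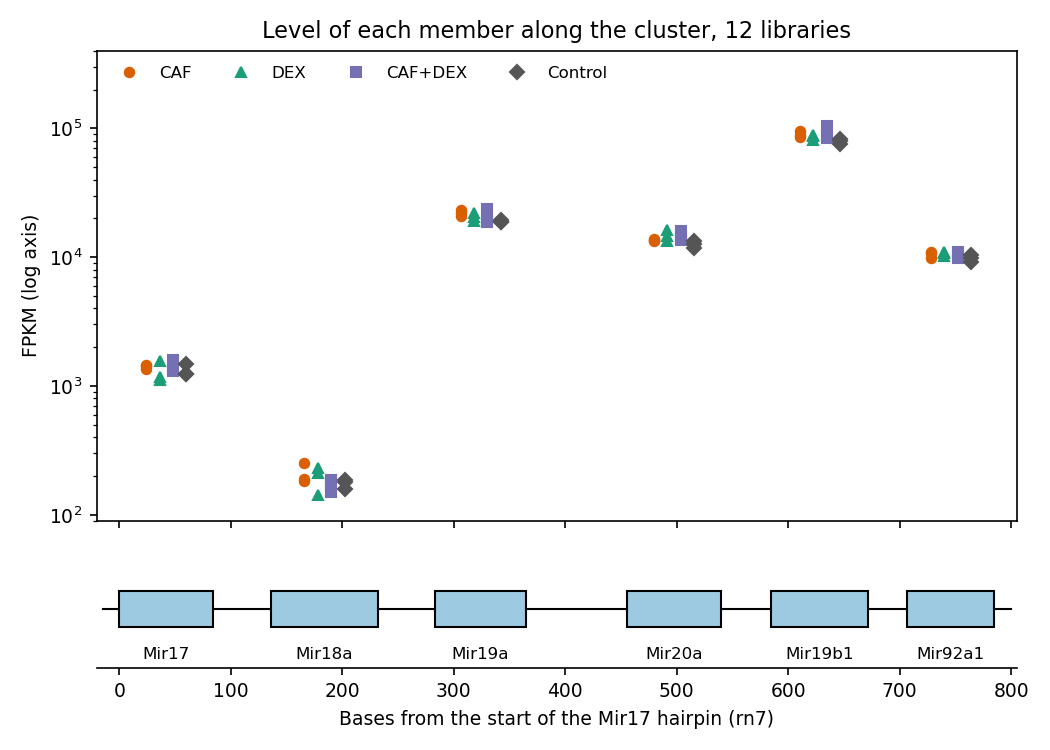
FPKM of each member (log axis) in 12 libraries, 3 per group, above a scale map of the 6 hairpins in bases from the start of Mir17. The order of the members is the same in every library, from Mir19b1 down to Mir18a, while the 4 groups lie close together at each hairpin.

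As a share of recovered reads the cluster was a small part of the liver microRNAs. It held 1.16, 1.12 and 1.24% of reads in the CAF libraries and 1.18, 1.08 and 1.15% in the DEX libraries, and 1.13, 1.10 and 1.33% in the CAF+DEX libraries, against 1.08, 1.06 and 0.988% in the Control libraries. All CAF and all CAF+DEX libraries were above all Control libraries, while 1 DEX library fell within the Control range. The means were 1.18 ± 0.06% in CAF, 1.13 ± 0.05% in DEX, 1.19 ± 0.13% in CAF+DEX and 1.04 ± 0.05% in Control (SD, n = 3 each). This share is a sum over the chosen members and was not tested. Mir19b1 makes up 64.6 to 68.0% of it, and its reads cannot be told apart from those of a copy on chromosome X, as given below.

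The share of reads within the cluster varied little between libraries for Mir19b1 and most, relative to its size, for Mir18a. Mir19b1 took 64.6 to 68.0% of the cluster's reads over the 12 libraries, Mir19a 13.5 to 15.7%, Mir20a 9.46 to 11.6% and Mir92a1 6.13 to 7.84%. Mir17 took 0.864 to 1.17% and Mir18a 0.117 to 0.208%, so the first 2 hairpins together gave little of the signal.

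For 3 of the hairpins there is another genomic copy of the same mature sequence on chromosome X, which limits what their reads say about chromosome 15. The hairpins of these pairs are shown with the mature sequence in lower case and the first 5 bases after it in capitals (RefSeq, GRCr8).
Mir17 (chromosome 15): caaagugcuuacagugcagguagUGGUG
Mir106a (chromosome X): caaagugcuuacagugcagguagCUUCU
Mir19b1 (chromosome 15): ugugcaaauccaugcaaaacugaCUGUG
Mir19b2 (chromosome X): ugugcaaauccaugcaaaacugaUUGUG
Mir92a1 (chromosome 15): uauugcacuugucccggccugUUGAG
Mir92a2 (chromosome X): uauugcacuugucccggccugAGGAA

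In each pair the copies part at the first base after the mature sequence, and they share 4 bases before it for Mir17 and Mir106a and 2 bases for the other pairs. A read that ends with the mature sequence can therefore be placed only by the few bases around it. Many recovered reads were not whole numbers, and no source used here says how the authors' counting divided reads that map to several places.

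The 3 pairs were divided in different ways. Mir19b1 held 49.5 to 49.6% of the reads of Mir19b1 and Mir19b2 together over the 12 libraries, an almost even division of 40869 to 61372 reads. Mir17 held 57.7 to 63.1% of the reads of Mir17 and Mir106a, and Mir92a1 held 98.1 to 98.6% of the reads of Mir92a1 and Mir92a2. Whether the miR-19b reads came from chromosome 15 or X cannot be told apart here, so the level of Mir19b1 is uncertain as that of a separate gene. Summing a pair can only raise the member, so the sum does not show whether Mir19b1 by itself was the highest.

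Other hairpins outside the cluster share its seeds, and for 2 families they hold most of the reads. The most abundant hairpin of each of these 2 families is shown with the seed in capitals (RefSeq, GRCr8).
rno-miR-93-5p (Mir93, chromosome 12): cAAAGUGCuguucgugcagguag
rno-miR-25-3p (Mir25, chromosome 12): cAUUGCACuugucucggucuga

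Mir93, of the miR-106b-25 cluster, held a mean of 80.0% of the reads of hairpins with the miR-17 seed, and Mir17 and Mir20a together held 15.5 to 21.0%. Mir25, of the same cluster, held a mean of 86.4% of the reads with the miR-92 seed, and Mir92a1 held 10.1 to 13.5%. Mir19a and Mir19b1 held 54.1 to 54.9% of the reads with the miR-19 seed as deposited, a share that rests on the even division of the miR-19b reads. With all of these from chromosome X the cluster would hold the mean of 9.94% of Mir19a alone, and with all from chromosome 15 it would hold 100%. Mir18a was the 1 measured hairpin with its seed. These shares are counts of reads per hairpin over both arms.

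**Figure D2:**
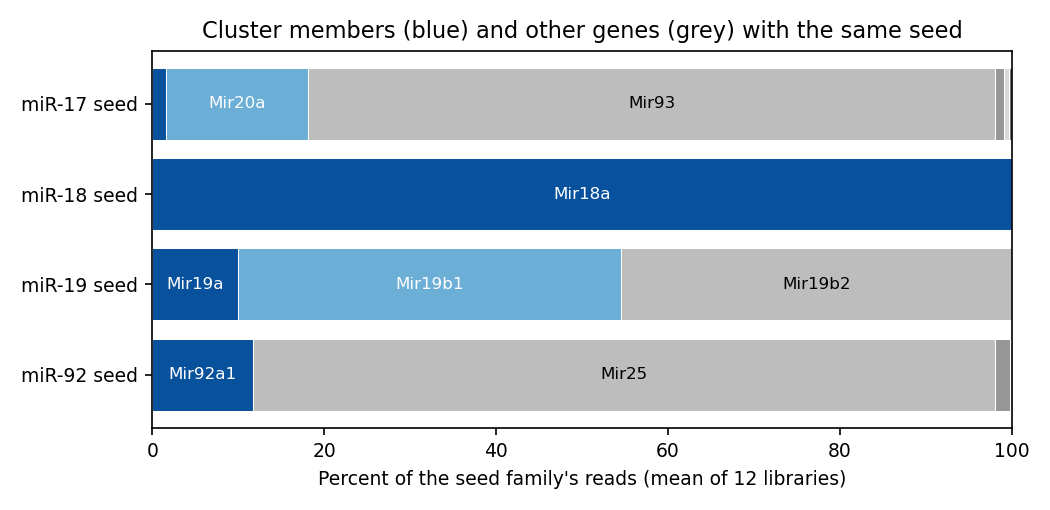
Mean share of recovered reads (percent, 12 libraries) of each hairpin among those with the same seed, with cluster members in blue and other hairpins in grey. Mir93 holds 80.0% of the miR-17 seed reads and Mir25 86.4% of the miR-92 seed reads, while the miR-19b reads are divided almost evenly between Mir19b1 and Mir19b2.

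None of the 6 members passed the test in any comparison between the groups, and the differences found were small. Each member was tested by limma-trend on log2(FPKM + 3.80) in 1 model over all features, with Benjamini-Hochberg adjustment over the 293 tested. The fold changes are on that scale. The 3 comparisons with Control share the same 3 Control libraries and are not independent of each other. The members come from 1 primary transcript and share each library's scaling, so the 6 members are not 6 independent features. The values of the members follow by seed family.

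Mir20a, a miR-17 seed member, was the 1 member for which all 9 libraries from treated rats lay above all 3 Control libraries. It had 13389, 13503 and 13854.5 FPKM in CAF libraries, 16109, 13460.4 and 14527 FPKM in DEX libraries and 14533, 13551 and 15852 FPKM in CAF+DEX libraries, against 12584, 13241 and 11753 FPKM in Control libraries. The gap between the highest Control library and the lowest treated library was small beside the range within DEX or CAF+DEX. Of the 293 features, 1.02% had all 9 treated libraries higher. Mir20a averaged 13582 ± 243 FPKM in CAF, 14699 ± 1333 in DEX, 14645 ± 1154 in CAF+DEX and 12526 ± 745 in Control (SD, n = 3 each).

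Mir17, with the same seed, was well below Mir20a in FPKM and did not separate the groups. Its values were 1459, 1362 and 1439.6 FPKM in CAF libraries, 1572, 1119.9 and 1183 FPKM in DEX libraries and 1334, 1307 and 1583 FPKM in CAF+DEX libraries, against 1229, 1479 and 1239 FPKM in Control libraries. The 3 DEX libraries span the range of almost all others, and each treated group overlapped Control. The ratio of Mir20a to Mir17 in FPKM was 9.18 to 9.92 in CAF, 10.3 to 12.3 in DEX, 10.0 to 10.9 in CAF+DEX and 8.95 to 10.2 in Control. The lowest DEX library and the highest Control library were nearly equal in this ratio, and it was not tested.

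Mir18a was the rarest member, with 40.5 to 75 reads per library. It had 251, 184 and 191 FPKM in CAF libraries, 143, 209 and 232 FPKM in DEX libraries and 149, 187 and 169 FPKM in CAF+DEX libraries, against 159, 178 and 185 FPKM in Control libraries. The DEX group held both a library below all Control libraries and others above them, and CAF and CAF+DEX also overlapped Control. Its coefficient of variation over the 12 libraries was 17.1%, beside the 13.3% that counting alone would give.

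Mir19a and Mir19b1, the miR-19 seed members, had their lowest group means in Control. Mir19a had 22139, 20693 and 23389 FPKM in CAF libraries, 21913.5, 18916 and 20343 FPKM in DEX libraries and 18604, 19323 and 23782 FPKM in CAF+DEX libraries, against 19548, 18880 and 18582 FPKM in Control libraries. All CAF libraries were above all Control libraries, while DEX and CAF+DEX overlapped Control. The CAF+DEX mean of 20569.5 ± 2805 FPKM (SD, n = 3) rested on library 5 of that group, which was the highest of the 12.

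Mir19b1 showed a similar layout at a higher level. It had 88596, 85446 and 95974 FPKM in CAF libraries, 87364, 81833 and 88291 FPKM in DEX libraries and 86975, 84524 and 104023 FPKM in CAF+DEX libraries, against 83260.2, 80002.5 and 74967 FPKM in Control libraries. All CAF and all CAF+DEX libraries were above all Control libraries, and 1 DEX library fell within the Control range. Its copy Mir19b2 averaged 83032 ± 5007 FPKM in CAF, 79098 ± 3180 in DEX, 84770.5 ± 9763 in CAF+DEX and 73329 ± 3885 in Control (SD, n = 3 each), which is not separate evidence, since the copies share reads.

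Mir92a1 was the steadiest member, with a coefficient of variation of 5.56% over the 12 libraries. It had 9899, 10692 and 11056 FPKM in CAF libraries, 10871, 10832 and 10151.5 FPKM in DEX libraries and 10936, 9925 and 10465 FPKM in CAF+DEX libraries, against 9839, 10463 and 9139 FPKM in Control libraries. Every treated group overlapped Control. For the other members the coefficient of variation over the 12 libraries was 11.1% for Mir17, 9.13% for Mir19a, 8.96% for Mir20a and 8.63% for Mir19b1, where counting would give 5.26% for Mir17 and 0.647 to 1.64% for the rest.

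**Figure D3:**
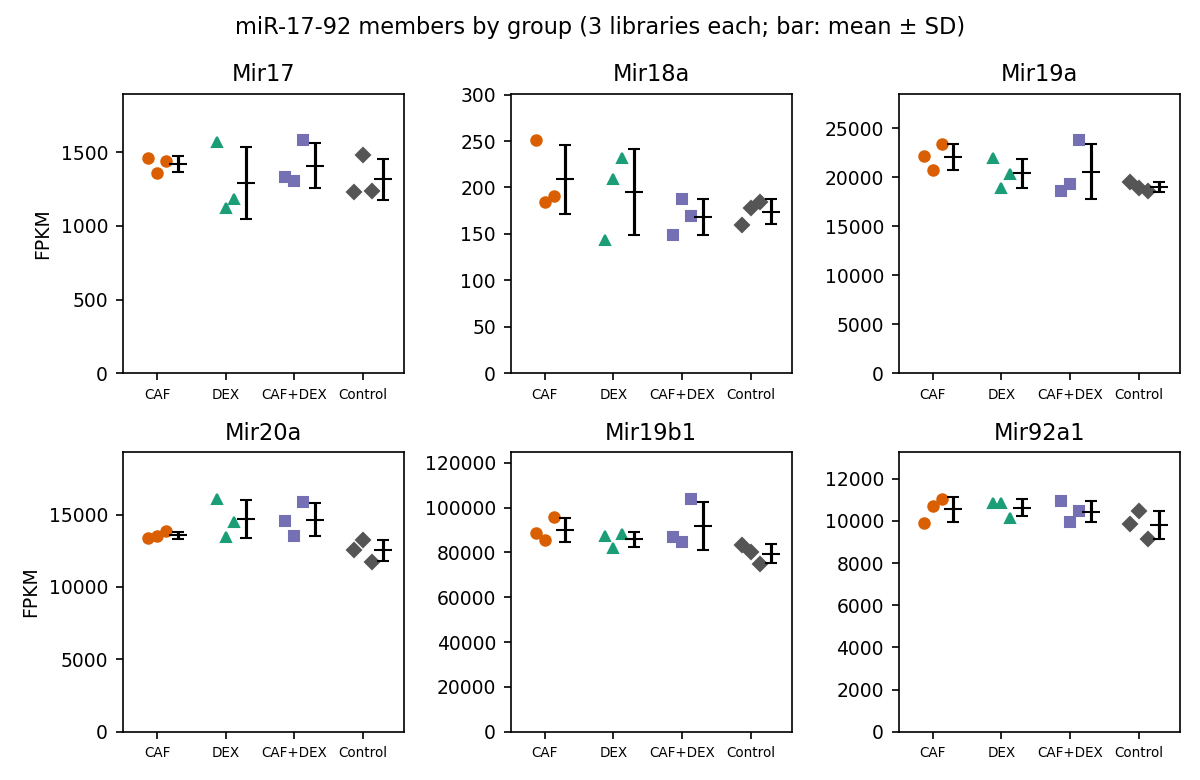
FPKM of each member in the 12 libraries (points) with the mean ± SD of each group of 3 beside them, on axes that start at 0. The highest Mir19a, Mir19b1 and Mir17 values are those of library 5 of CAF+DEX, and only Mir20a has all 9 treated libraries above the Control libraries.

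Caffeine alone gave higher fitted levels for 6 of 6 members, beside 50.9% of all features, with no member past the threshold. The median log2 fold change of the members was 0.15 for CAF against Control, beside 0.0023 over all 293 features. Called members were 0 of 6 in limma-trend and 0 of 6 in limma-voom on the recovered reads, and 0.683% of features were called. At an unadjusted p below 0.05, 2 of 6 members passed, beside 13% of all features. In 3 of 6 members (Mir19a, Mir20a and Mir19b1) all CAF libraries exceeded all Control libraries, beside 6.48% of all features, and 0 members were lower in the same way, beside 8.19%.

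The largest of these differences was for Mir18a, at a log2 fold change of 0.25 with SE 0.21 (limma-trend adjusted p = 0.751), and it was 0.11 without CAF library 1, below the 0.21 of Mir19a. Mir19a differed by 0.21 with SE 0.091 (limma-trend adjusted p = 0.361), a fold of 1.16 with a 95% interval of 1.01 to 1.33. Mir19b1 differed by 0.18 with SE 0.080 (limma-trend adjusted p = 0.361), a fold of 1.13 with a 95% interval of 1.00 to 1.28. Mir20a, Mir17 and Mir92a1 had log2 fold changes of 0.12, 0.11 and 0.10, with limma-trend adjusted p of 0.646 to 0.870. Without Control library 4 these were 0.073 for Mir20a, 0.074 for Mir17 and 0.055 for Mir92a1, while Mir17 was 0.068 without Control library 1 and 0.20 without Control library 3. The upper ends of the unadjusted 95% intervals of this fit ranged from a fold of 1.20 for Mir92a1 to 1.63 for Mir18a. They depend on the fit. With library numbers fitted as a replicate block, Mir18a had a log2 fold change of 0.41 with SE 0.32.

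Marker microRNAs of blood cells had lower fitted levels in the same CAF libraries, and 2 of them passed the test. The 6 leukocyte markers summed to 170746 to 209357 FPKM in CAF libraries, against 256370 to 291122 FPKM in Control libraries, and 6 of 6 had lower fitted levels with a median log2 fold change of -0.50, of which 2 passed the threshold. No feature was called in this comparison with the replicate block, with no filter, with only the groups compared, or without CAF 2, CAF 5, Control 1 or Control 3. The 3 erythroid markers summed to 7502 to 14237 FPKM in CAF libraries, against 12584 to 15141 FPKM in Control libraries, ranges that overlapped, and 3 of 3 had lower fitted levels with 0 past the threshold in limma-trend. The 6 hepatocyte markers had a median log2 fold change of 0.014. The 4 stellate and smooth muscle markers had a median of 0.15 with 3 higher, the 3 epithelial markers a median of -0.055 with 1 higher, and the 1 endothelial marker, Mir126a, a value of 0.19, with 0 past the threshold in limma-trend. None of these markers was at 0 in any library. Their part in the values of the cluster was not tested.

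Dextromethorphan alone gave higher fitted levels for 5 of 6 members, all but Mir17, beside 51.5% of all features. The median log2 fold change for DEX against Control was 0.11 over the members, beside 0.0039 over all features. Called members were 0 of 6 by limma-trend and by limma-voom, and 0% of features were called, with 1 of 6 members at an unadjusted p below 0.05, beside 4.44% of all features. That member was Mir20a, with a log2 fold change of 0.23 and SE 0.080 (limma-trend adjusted p = 0.676), a fold of 1.17 with a 95% interval of 1.04 to 1.32. It was also the 1 member with all DEX libraries above all Control libraries, beside 6.83% of all features, while 0 members were lower in the same way, beside 4.1%. The others ran from -0.038 for Mir17 to 0.13 for Mir18a, and Mir18a ran from -0.0033 without DEX library 4 to 0.34 without DEX library 1. The leukocyte markers summed to 252967 to 288492 FPKM in DEX libraries, overlapping the Control range.

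Both drugs together gave higher fitted levels for 5 of 6 members, all but Mir18a at -0.049, beside 47.1% of all features. The median log2 fold change for CAF+DEX against Control was 0.10 over the members, beside -0.0089 over all features. Called members were 0 of 6 by limma-trend and by limma-voom, and 0% of features were called, with 2 of 6 at an unadjusted p below 0.05, beside 10.2% of all features. Those were Mir20a, at 0.22 with SE 0.080 (limma-trend adjusted p = 0.351), and Mir19b1, at 0.20 with SE 0.080 (limma-trend adjusted p = 0.395). Both had all CAF+DEX libraries above all Control libraries, beside 7.17% of all features, and 0 members were lower in the same way, beside 7.51%. The leukocyte markers summed to 191008 to 234448 FPKM in CAF+DEX libraries, again below all Control libraries. The erythroid markers summed to 10589 to 11747 FPKM in CAF+DEX libraries, against 12584 to 15141 FPKM in Control libraries, and no marker of either list passed the threshold in limma-trend. Their part in these values was not tested.

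Library 5 of CAF+DEX decided part of this comparison. Without it the log2 fold change of Mir19b1 was 0.11 in place of 0.20, and that of Mir19a was -0.0030 in place of 0.11. Mir17 was 0.010 in place of 0.097, and Mir20a was 0.17 in place of 0.22.

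**Figure D4:**
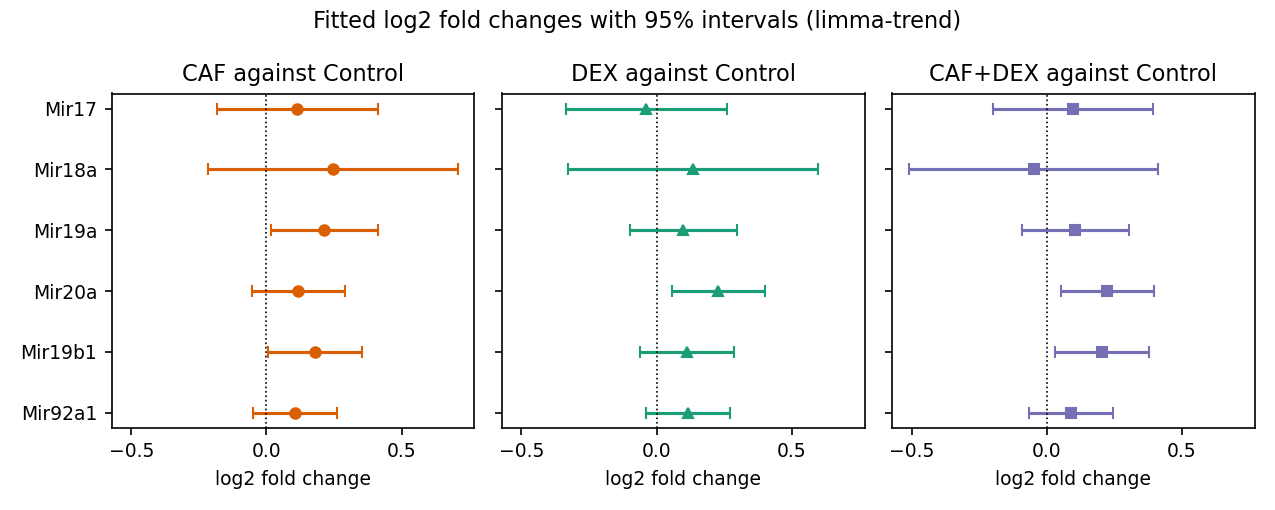
Fitted log2 fold changes of the 6 members with 95% intervals for CAF, DEX and CAF+DEX, each against the same Control libraries (limma-trend). The intervals of Mir19a and Mir19b1 in CAF, Mir20a in DEX, and Mir20a and Mir19b1 in CAF+DEX lie above 0 before adjustment for 293 features, and 0 of the 18 pass after it.

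Adding the second drug to the first changed no member past the threshold. In the comparison of CAF+DEX with CAF, 2 of 6 members had higher fitted levels, beside 49.5% of all features. Called members were 0 by limma-trend or limma-voom beside 0% of all features, and 0 had an unadjusted p below 0.05, beside 5.12%. In the comparison of CAF+DEX with DEX, 3 of 6 members were higher, beside 45.7% of all features. By either tool 0 members were called, beside 0% of all features, and 0 had an unadjusted p below 0.05, beside 7.85%. No member separated the libraries of CAF+DEX from those of CAF or DEX in either direction, where all 3 libraries were higher in 3.41% of features and lower in 3.75% against CAF, and higher in 4.78% and lower in 8.87% against DEX. The widest differences were those of Mir18a, at -0.30 against CAF and -0.18 against DEX with SE 0.21. Without CAF library 1 the difference from CAF was -0.16, and leaving out 1 library moved the difference from DEX between -0.39 without DEX library 1 and -0.046 without DEX library 4.

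The interaction of the drugs, which asks whether the combination departs from the sum of both log2 changes, was below 0 for 5 of 6 members. It counts the same Control libraries with the opposite sign to the comparisons with Control, so its sign is not independent of theirs. It was above 0 for 1 member, beside 48.1% of all features. The median was -0.13 over the members, beside -0.0064 over all features, and 0 members were called by limma-trend or limma-voom, beside 0% of all features. At an unadjusted p below 0.05 there were 0 members, beside 5.46%. The widest interaction was that of Mir18a, at -0.43 with SE 0.30 (limma-trend adjusted p = 0.947). Mir19a had the interaction with the smallest p among the members, at -0.21 with SE 0.13 (limma-trend adjusted p = 0.924), and -0.32 without CAF+DEX library 5.

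Averaged over both levels of the other drug, caffeine had a positive fitted effect on 6 of 6 members and dextromethorphan on 3 of 6. Of all features, 48.1% had a positive fitted effect of caffeine and 51.2% of dextromethorphan. For the caffeine main effect 0 members were called by limma-trend or limma-voom, beside 0.683% of all features, and 1 member had an unadjusted p below 0.05, beside 14.3%. That was Mir19b1, at 0.14 with SE 0.056 (limma-trend adjusted p = 0.253), and 0.090 without CAF+DEX library 5. For the dextromethorphan main effect 0 members were called by either tool, beside 0% of all features, and 1 had an unadjusted p below 0.05, beside 7.51%. That was Mir20a, at 0.17 with SE 0.056 (limma-trend adjusted p = 0.496). The test for any difference between the 4 groups called 0 members, beside 0.341% of all features, and gave Mir20a the smallest p of the members (limma-trend adjusted p = 0.433). Its unadjusted p was below 0.05 for 1 member, beside 11.3% of all features.

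The members did not all vary together over the 12 libraries. Of the 15 pairs, 11 had a positive Pearson r of log2 FPKM, with a median of 0.48 and a range of -0.33 to 0.86. The 10 pairs without Mir18a were all positive, from 0.31 to 0.86, and the 5 pairs with Mir18a ran from -0.33 to 0.10. With the group means removed, the 5 pairs with Mir18a ran from -0.63 with Mir92a1 to -0.16 with Mir19b1. The 10 others then ran from 0.057 for Mir19a with Mir92a1 to 0.91 for Mir19a with Mir19b1. The smallest adjusted p of these in exact permutation within groups was 0.0521. Mir18a had 40.5 to 75 reads per library, where counting alone would give a coefficient of variation of 13.3%, beside 17.1% observed. The part of counting error in its r values was not tested. All values of a library share its scaling to 1 total.

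Mir19a and Mir19b1 were the 1 pair past the threshold. Their Pearson r was 0.86 (permutation p = 8.0e-05, adjusted p = 0.0012 over 15 pairs, n = 12 libraries), and Spearman's rho was 0.86 (permutation p = 0.00063, adjusted p = 0.00945). Without the 2 libraries farthest from the median of Mir19a, r was 0.67. With the group means removed r was 0.91, with p = 0.0054 in an exact permutation within groups and adjusted p = 0.0521 over the 15 pairs. Their mature sequences are 1 base apart, and an exchange of reads between them was not tested.

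Mir17 and Mir20a gave an r of 0.55 over the 12 libraries (permutation p = 0.0644, adjusted p = 0.138 over 15 pairs) and a Spearman's rho of 0.40 (permutation p = 0.201, adjusted p = 0.366). Their r was 0.89 with the group means removed, with an exact permutation p of 0.00694 within groups and adjusted p = 0.0521. Mir20a and Mir19b1 reached 0.73 (permutation p = 0.00806, adjusted p = 0.0604 over 15 pairs), with a rho of 0.71 (permutation p = 0.0128, adjusted p = 0.0911). Without the 2 libraries farthest from the median of the first member, r was 0.47 for Mir17 with Mir20a and 0.72 for Mir20a with Mir19b1.

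**Figure D5:**
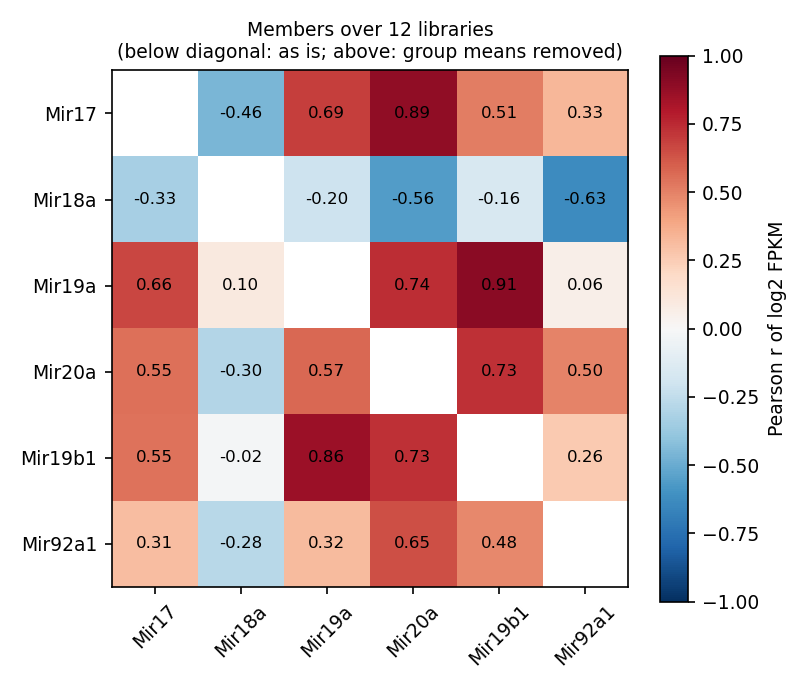
Pearson r of log2 FPKM between members over 12 libraries, as is below the diagonal and with the group means removed above it (colour scale from -1 to 1). Pairs with Mir18a, which had 40.5 to 75 reads per library, run from -0.33 to 0.10 below the diagonal. There, Mir19a with Mir19b1 is highest at 0.86.

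Members and hairpins of the related miR-106a-363 and miR-106b-25 clusters were left out of the next comparison. Among the 207 other features above 0 in all 12 libraries, 5 followed the mean log2 level of the members most closely. They were Mir186 with r = 0.80, Mir674 with 0.78, the liver microRNA Mir802 with 0.70, Mir29b-3 with 0.66 and Mir29b1 with 0.64. These were ranked by their likeness, so the values are a description and carry no test. The mean gives each member equal weight, and Mir18a, the rarest, varied most in it. The SD of its log2 level over the 12 libraries was 0.24, beside 0.082 for Mir92a1. With Mir18a alone, r was 0.48 for Mir186, 0.20 for Mir674, 0.26 for Mir802, 0.28 for Mir29b-3 and 0.25 for Mir29b1. With Mir92a1 alone, r was 0.11 for Mir186, 0.17 for Mir674, 0.11 for Mir802, and 0.44 for both Mir29b-3 and Mir29b1. Mir29b-3 and Mir29b1 give the same mature microRNA and count as 1 signal.

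Hairpins of the related clusters were set beside the members for caffeine alone. Of the 9 hairpins of the miR-106a-363 and miR-106b-25 clusters on the list, 8 were measured and tested, and 0 passed the threshold for CAF against Control in limma-trend. Log2 fold changes for CAF against Control were 0.29 for Mir106a, 0.18 for Mir19b2 and 0.13 for Mir92a2, the copies of members, and -0.043 for Mir93, 0.014 for Mir106b and -0.084 for Mir25. Mir363, of the X-linked cluster, had 48.2, 14.8 and 23.0 FPKM in CAF libraries, against 32.3, 53.8 and 37.0 FPKM in Control libraries. Its log2 fold change was -0.57 with SE 0.41 (limma-trend adjusted p = 0.680). These values rested on only 4 to 12 reads per CAF library and 9 to 16 per Control library. Mir363 was not among the hairpins planned for values. Mir20b, a miR-17 seed hairpin of the X-linked cluster chosen after its values were seen, averaged 193 ± 39.0 FPKM in CAF and 351 ± 90.4 FPKM in Control (SD, n = 3 each). Its log2 fold change of -0.84 with SE 0.22 (limma-trend adjusted p = 0.109) lay on the other side of 0 from that of Mir20a, and it rested on 36 to 49 reads per CAF library.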

How the data were processed

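The authors deposited FPKM values for 444 features in 12 libraries of rat liver microRNA. Per the labels' protocols, libraries came from a QIAseq kit with unique molecular indices in the reverse transcription primer. Per the submitters' processing notes, cutadapt 3.7, STAR 2.7.11b, featureCounts of Subread 2.0.6 and build rn7 were used; their settings, and whether indices were collapsed, are not given in the sources used here. All 12 value columns could be matched to a group and 0 were unmatched; header numbers name the libraries.

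Reads were recovered from the FPKM as multiples of 0.01 read, and 50.5 to 58.3% of features above 0 had whole reads per library. The 293 features above 0 in at least 3 of 12 libraries were tested with limma-trend (limma 3.58.1, R 4.3.3) on log2(FPKM + 3.80), the 10th percentile of values above 0, in 1 model of 4 group means with a threshold of adjusted p 0.05. Fold changes on this scale understate changes of rare features. Precision is limited by 3 libraries per group. All 6 members were named whatever their values, with their paralogs and the 5 features outside both lists most like the members' mean. Of 27 marker names, 23 were matched. The order of members was tested by exact sign-flip permutation and correlations with 100000 permutations. Hairpins were folded with RNAfold 2.7.2. The tests were checked on simulated data. Alternatives were other pseudocounts, filters, scalings, limma-voom, fewer groups, a replicate block and leaving out each library. The members and lists were chosen with earlier results of these data known.

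Header numbers were checked for pairing: 11 same-numbered pairs of libraries had deviations correlated at -0.13 to 0.10, so the numbers were not taken to pair libraries.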

Additional observations from a re-analysis of the deposited data

How the results depend on the processing

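No member was called in 1038 refitted member comparisons over 22 alternatives. The order of the 6 members held with read numbers in place of FPKM and with copies of the same mature sequence summed. Scaling by library or leaving out a library cannot change an order that held within each library, so these settings do not test it. The number of features called moved more. For CAF against Control it was 2, and 0 with no filter, with the replicate block or with only the groups compared, 4 with a stricter filter or quantile normalization, and 0 to 10 when a library was left out (0 without CAF 2, CAF 5, Control 1 or Control 3, 10 without CAF 1). For DEX against Control it was 0, and 1 with the replicate block, and 0 to 1 when a library was left out. For CAF+DEX against Control it was 0, and 2 with the stricter filter and 1 with quantile normalization. For CAF+DEX against DEX it was 0, and 1 with quantile normalization, and 0 to 1 without a library, as for the interaction. For the caffeine main effect it was 2, and 11 with the stricter filter or median-of-ratios scaling, 5 with quantile normalization, 4 with limma-voom, 0 with the replicate block and 1 to 10 without a library. For any difference it was 1, and 0 with no filter or the replicate block, and 0 to 4 without a library. The number of correlated member pairs was 1, and 2 with median-of-ratios scaling, and 1 to 2 without a library (2 without CAF 5, DEX 1 or Control 3). The cause of these shifts was not tested.

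Of the members' log2 fold changes, 15 of 462 changed sign and 1 became 0 under other settings, and 36 of 576 changed sign when a library was left out, and none of them was called. With the replicate block, Mir17 was 0.086 for DEX against Control, -0.10 for the interaction and 0.034 for the dextromethorphan main effect, Mir18a was 0.12 for CAF+DEX against Control, and Mir19a was -0.074 for CAF+DEX against DEX and 0.0030 for the dextromethorphan main effect. With quantile normalization, Mir18a was -0.054 for DEX against Control, 0.023 for CAF+DEX against Control and 0.077 for CAF+DEX against DEX. With it, CAF+DEX against CAF gave 0.018 for Mir17 and 0.027 for Mir92a1, and CAF+DEX against DEX gave -0.037 for Mir19a, 0.063 for Mir20a and 0 for Mir92a1. Mir20a was 0.019 for CAF+DEX against DEX with median-of-ratios scaling. The Mir17 interaction was -0.067 with copies of the same mature sequence summed, an alternative chosen after seeing the data.

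Leaving out a library gave these ranges that cross 0. For DEX against Control, Mir17 ran from -0.19 to 0.057 and Mir18a from -0.0033 to 0.34. In CAF+DEX against Control, Mir18a ran from -0.13 to 0.034 and Mir19a from -0.0030 to 0.17. In CAF+DEX against CAF, Mir17 ran from -0.10 to 0.034, Mir19b1 from -0.068 to 0.081 and Mir92a1 from -0.059 to 0.022. In CAF+DEX against DEX, Mir19a ran from -0.10 to 0.075, Mir20a from -0.066 to 0.064, Mir19b1 from -0.00068 to 0.15 and Mir92a1 from -0.059 to 0.011. The Mir17 interaction ran from -0.074 to 0.17 and the caffeine main effect on Mir18a from -0.070 to 0.10. The dextromethorphan main effect ran from -0.10 to 0.020 for Mir17, -0.15 to 0.021 for Mir18a and -0.059 to 0.029 for Mir19a. Mir18a had the fewest reads, and each group had 3 libraries.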
